A study of Mus musculus with 2 samples.

Results

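The TNF superfamily comprises secreted and membrane-bound ligands and the receptors that bind them. Its members were taken as every gene of the deposited table whose symbol begins with Tnfsf or Tnfrsf followed by a number, together with Tnf, Lta, Ltb, Ltbr, Fasl, Cd40, Cd40lg, Cd27, Cd70, and Ngfr. This gave 41 of 24091 genes, of which 17 encode ligands and 24 encode receptors. The receptor genes Fas, Relt, Edar, and Eda2r, and the ligand gene Eda, do not carry these symbols and are given with the signalling genes.

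The study compared 2 RNA sequencing libraries, 1 from sham-irradiated C57BL/6 mice and 1 from C57BL/6 mice that received pelvic irradiation, given in the labels as 7.5 Gy and 5 days without saying whether the dose was daily or total. In both conditions, gonadal fat pads were collected 2 months later, cells were freed with collagenase, and those that floated were cultured for 3 days before polyadenylated RNA was sequenced. Both sample titles also name PBS, and the labels do not say what it was given for. The number, sex, and age of the mice are not stated in the labels. As each condition had a single library, there was no test between conditions, and every difference below compares 1 library with 1 library.

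The sham library held 30576000 fragments and the irradiated library 34996000, as recovered from the deposited values. A level is given as FPKM, the fragments per 1000000 sequenced and per kilobase of the gene, so it can be compared between genes. The material is labelled as primary adipocytes, yet Adipoq, which encodes the adipocyte hormone adiponectin, was at an FPKM of 0.133 and 0.232, on 5 and 10 fragments. The 10 fibroblast and progenitor markers examined had a summed FPKM of 4110 and 3479, against 109 and 110.3 for the 10 adipocyte markers, of which Fabp4 alone gave 96.9 in both libraries. The 12 macrophage markers summed to 614 and 655, the 8 endothelial markers to 42.3 and 46.4, and the 8 mesothelial markers to 34.5 and 49.5. The 8 T and NK cell markers found summed to 2.54 and 1.47, the 6 B and plasma cell markers to 2.71 and 1.26, the 6 dendritic cell markers to 4.76 and 4.42, the 5 mast cell markers to 14.6 and 8.43, and the 5 neutrophil markers to 3.28 and 2.14. The 6 epididymal epithelium markers summed to 0.485 and 0.444, with Krt5, Lcn5, and Crisp1 at 0 in both libraries, and of the neutrophil markers Ly6g was at 0 in both. In such bulk samples, fewer cells of a type and less RNA per cell cannot be told apart.

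Most TNF superfamily ligands act as trimers that are held on the cell surface or cut from it, and each trimer draws its receptors together. Receptors with a death domain, such as those for TNF, FasL, and TRAIL, can start apoptosis through FADD and caspase-8. Most others recruit TRAF adaptors and switch on NF-kB and MAP kinases. Some receptors work as decoys that bind a ligand without passing on a signal. In adipose tissue, TNF from macrophages is known to oppose insulin action in adipocytes, and RANKL from stromal cells is best known for driving osteoclast formation in bone.

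The promoters shown here are those of the ligand gene with the largest positive difference between the libraries (Tnfsf15), the ligand gene with the largest negative difference (Tnfsf11), and the receptor gene with the second highest level of the family (Tnfrsf12a). They are the bases before the start of the gene from RefSeq on build GRCm38.p6, read 5′ to 3′ on the strand of the gene. Capitals mark the letters TATAA, which resemble a TATA box, and GGGCGG, which resemble the GC box bound by SP1, found on either strand, and the 2 motifs do not overlap. The start of Tnfsf15 in the deposited table lies 54 bases before that of RefSeq, so its stretch is 196 bases and the others are 250 bases.
Tnfsf15, chr4:63745114-63745309, - strand: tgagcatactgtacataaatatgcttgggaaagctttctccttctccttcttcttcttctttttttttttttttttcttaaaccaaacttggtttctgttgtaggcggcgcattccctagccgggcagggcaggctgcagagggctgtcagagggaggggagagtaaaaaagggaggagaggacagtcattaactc
Tnfsf11, chr14:78308044-78308293, - strand: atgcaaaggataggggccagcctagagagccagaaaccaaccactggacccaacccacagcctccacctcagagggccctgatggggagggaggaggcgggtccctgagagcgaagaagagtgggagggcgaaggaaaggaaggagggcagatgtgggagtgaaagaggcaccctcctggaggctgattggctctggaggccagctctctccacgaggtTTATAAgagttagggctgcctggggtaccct
Tnfrsf12a, chr17:23677450-23677699, - strand: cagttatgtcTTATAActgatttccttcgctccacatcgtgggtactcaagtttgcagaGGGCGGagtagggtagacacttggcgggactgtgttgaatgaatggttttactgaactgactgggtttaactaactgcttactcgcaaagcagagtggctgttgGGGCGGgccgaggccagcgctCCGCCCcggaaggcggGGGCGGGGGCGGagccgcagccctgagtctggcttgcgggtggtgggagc

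The 3 promoters differed in these letters. The Tnfsf15 window of 250 bases held neither motif. That of Tnfsf11 held TTATAA near its 3′ end, which reads as TATAA on both strands, and no GGGCGG. That of Tnfrsf12a held GGGCGG at 5 positions and TTATAA near its 5′ end. Of all 32851 promoter windows of 250 bases, 22.8% held TATAA and 32.7% held GGGCGG on at least 1 strand. Of the 41 genes, 31 had a promoter in the RefSeq table, with 35 windows, and the 2 motifs were found in 9 and 15 of these windows. The motifs TATAA and GGGCGG were picked after the sequences had been read. The 3 promoters held no match to the NF-kB consensus site, to the p53 half-site consensus, or to TGANTCA, the AP-1 site, on either strand. Those motifs were found in 7.25%, 7.13%, and 6.75% of all windows and in 4, 2, and 5 of the 35 windows of the family, respectively. Tnfrsf10b and Tnfrsf11b had no entry and are named only.

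Of the 41 genes, 21 reached an FPKM of 1 or more in either library, comprising 7 ligand genes and 14 receptor genes. Of the whole table, 11253 of 24091 genes did so. Tnfrsf11a passed only in the irradiated library and Tnfsf14 only in the sham library. The FPKM of all 24 receptor genes summed to 247 and 286, and that of all 17 ligand genes to 19.7 and 25.3, so receptor transcripts were far more abundant than ligand transcripts in both libraries.

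**Figure D1:**
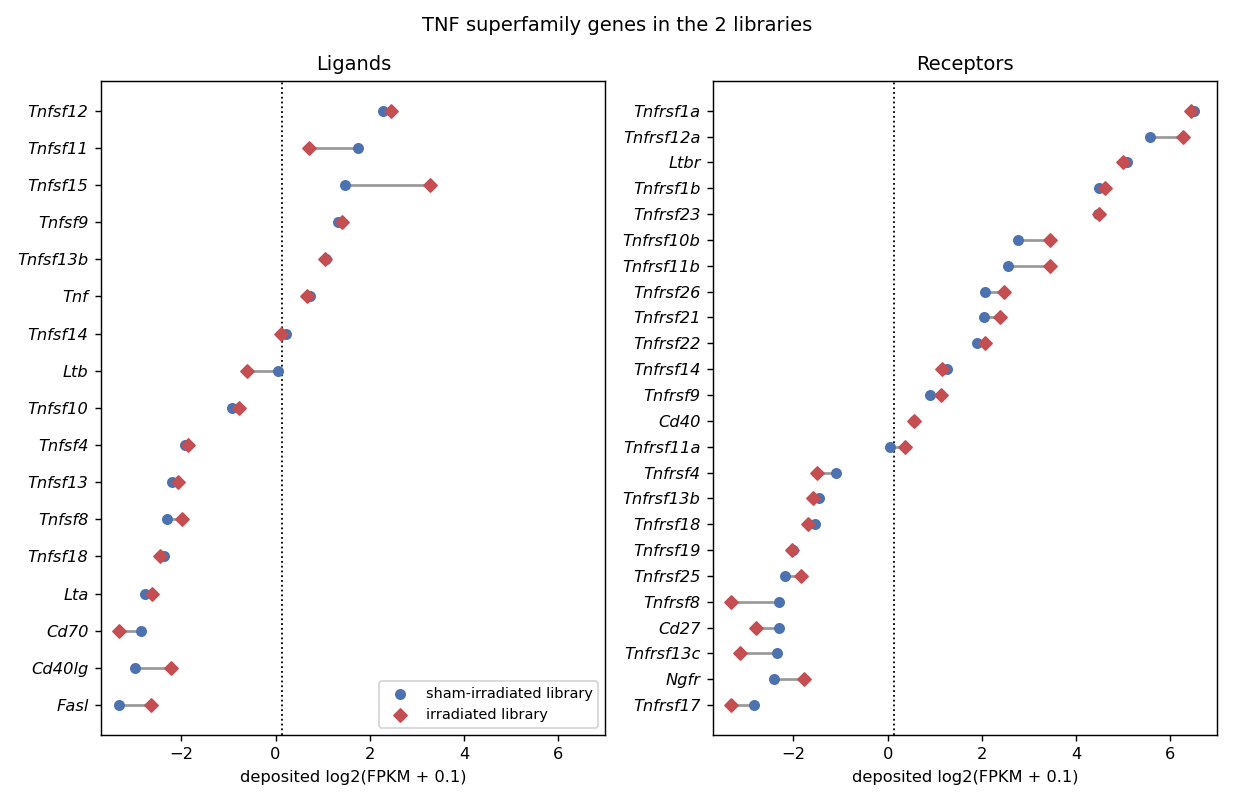
Deposited log2(FPKM + 0.1) of the 17 ligand genes (left) and 24 receptor genes (right) in the sham library (circles) and the irradiated library (diamonds), with a grey line joining the values of a gene and a dotted line at an FPKM of 1. The 5 receptor genes at or above an FPKM of 10 in both libraries are Tnfrsf1a, Tnfrsf12a, Ltbr, Tnfrsf1b, and Tnfrsf23, and the longest lines among genes above the dotted line are those of Tnfsf15 and Tnfsf11.

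Differences are the deposited log2(FPKM + 0.1) of the irradiated library minus the sham value. Each is given with an exact (Clopper-Pearson) 95% interval for the log2 ratio of the recovered fragments, called the counting interval, which covers counting error only and not variation between mice or cultures. Of the 21 genes, 1 was higher by at least 1 in the irradiated library, against 0.791% of the 11253 genes, and 1 was lower by at least 1, against 0.373%. At a difference of at least 0.5, 4 genes were higher, against 4.31% of the 11253 genes, and 1 was lower, against 1.44%. The counting interval lay above 0 for 8 of the 21 genes, against 23.8% of the 11253 genes, and below 0 for 2, against 17.4%. The median difference of the 21 genes was 0.13, and that of the 11253 genes was 0.02. It was -0.03 for the 7 ligand genes, which ranged from -1.06 to 1.80, and 0.21 for the 14 receptor genes, which ranged from -0.11 to 0.88.

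**Figure D2:**
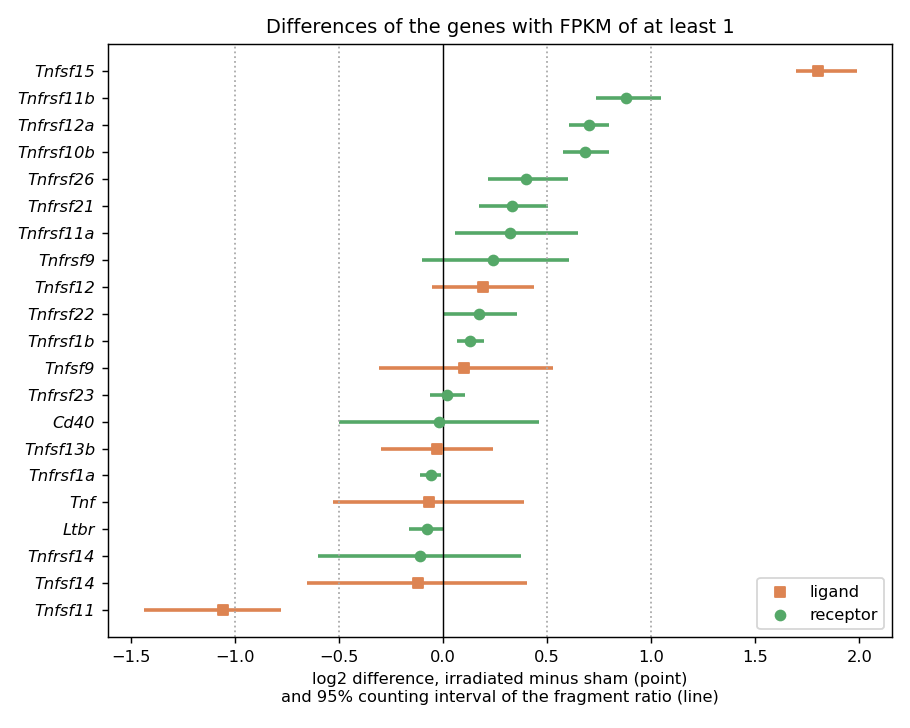
Difference in log2(FPKM + 0.1), irradiated minus sham-irradiated, of the 21 genes with an FPKM of 1 or more in either library (points), with the 95% counting interval of the fragment ratio (lines), ligands as squares and receptors as circles. The dotted lines mark differences of 0.5 and 1 in both directions. Tnfsf15, at 1.80, and Tnfsf11, at -1.06, lie beyond the outer lines, and Tnfrsf11b, Tnfrsf12a, and Tnfrsf10b lie between 0.68 and 0.88.

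Among the ligands, Tnfsf15 showed the largest difference. It encodes TL1A, a cytokine of endothelial and myeloid cells that co-stimulates T cells through death receptor DR3. Tnfsf15 (chromosome 4, 63724603 to 63745113, minus strand) showed an FPKM of 2.67 in the sham library and 9.55 in the irradiated library, on 475 and 1946 fragments. The difference was 1.80, with a counting interval from 1.69 to 1.99. As a ratio of fragments per library total, it was 3.58-fold higher in the irradiated library, with an interval from 3.24 to 3.97. Of the 11253 genes, 99.9% had a smaller difference. Its receptor DR3, encoded by Tnfrsf25, was close to the floor, with an FPKM of 0.121 and 0.181 on 7 and 12 fragments, so no difference of the receptor was detectable at this depth. Tnfsf8, the gene of CD30 ligand, is the next gene of the family on the same strand, 87.7 kb away. It had 7 and 12 fragments and a counting interval from -0.88 to 2.17. A difference as large as that of Tnfsf15 lies within that interval, so the neighbours could not be compared at this depth. Beside the value of Tnfsf15, the summed FPKM of the endothelial markers was 42.3 and 46.4 and that of the macrophage markers 614 and 655. Lyz2 gave most of the macrophage sum, with 443 and 410, and the other 11 macrophage markers summed to 172 and 244. Among them, C1qa and C1qc had a difference of 0.80, Cd68 of 0.71, and Mrc1 of 0.53, while Adgre1 had -0.02 and Cd163 -0.21. The part of either cell type in the result was not tested.

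Tnfsf11 moved the other way. It encodes RANKL, the ligand that drives osteoclast formation and lymph node development. Tnfsf11 (chromosome 14, 78277446 to 78308043) showed an FPKM of 3.29 in the sham library and 1.52 in the irradiated library, on 224 and 119 fragments. The difference was -1.06, with a counting interval from -1.44 to -0.78. Of the 11253 genes, 0.320% had a lower difference. T cells are a known source of RANKL, and the summed FPKM of the T and NK cell markers was 2.54 and 1.47, of which 1 of 8 reached an FPKM of 1. Each of these 8 markers was detected in both libraries, with 35 and 22 fragments for Cd3g, 18 and 13 for Cd3e, and 15 and 4 for Cd3d. Others were closer, with 23 and 22 fragments for Lck, 9 and 10 for Cd8a, and 5 and 7 for Klrb1c. Stromal cells were named above as a source too, and the summed FPKM of the 10 fibroblast and progenitor markers was 4110 and 3479. Col1a1 gave 1937 and 1428 of these sums, and Col3a1 gave 873 and 694. Of the 10 markers, 5 were higher and 5 lower, while 53.5% of the 11253 genes were higher. The part of T cells or of stromal cells in the value of Tnfsf11 was not tested.

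The RANKL receptors were not lower. Tnfrsf11b encodes osteoprotegerin, a secreted decoy that binds RANKL and TRAIL. Tnfrsf11b (chromosome 15, 54250619 to 54278484) showed an FPKM of 5.80 in the sham library and 10.8 in the irradiated library, on 499 and 1059 fragments. The difference was 0.88, with a counting interval from 0.74 to 1.05. Tnfrsf11a encodes RANK, the signalling receptor. It had an FPKM of 0.935 and 1.19 on 161 and 235 fragments, a difference of 0.32 with a counting interval from 0.06 to 0.65. It passed the minimum only through the library in which it was higher. The transcript of the decoy was 1.76 times that of RANKL in the sham library and 7.05 times in the irradiated library. On the deposited log2(FPKM + 0.1) scale, the difference of Tnfsf11 minus that of Tnfrsf11b was -1.94. The exact 95% counting interval of the log2 odds ratio of fragments, taken without the added 0.1, ran from -2.37 to -1.63. The ratio of RANKL to RANK was 3.51 and 1.28. On the deposited scale, the difference of Tnfsf11 minus that of Tnfrsf11a was -1.38, with an interval of the log2 odds ratio from -1.91 to -1.01.

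Of 31 known ligand and receptor pairs, both genes reached an FPKM of 1 in 8. In 12 pairs the receptor gene alone did so, in 4 the ligand gene alone, and in 7 neither. A gene can stand in several pairs, as Lta and Tnfsf10 do among the 12, so the pairs are not independent. TWEAK and its receptor were both well detected. Tnfsf12 encodes TWEAK, a cytokine made by many cells, and Tnfrsf12a encodes its small receptor Fn14, which is known to be induced by tissue injury. Tnfrsf12a (chromosome 17, 23675445 to 23677449) showed an FPKM of 47.1 in the sham library and 76.5 in the irradiated library, on 1383 and 2574 fragments. The difference was 0.70, with a counting interval from 0.61 to 0.80. Tnfsf12 had an FPKM of 4.72 and 5.40 on 244 and 319 fragments, a difference of 0.19 with an interval from -0.05 to 0.44. The receptor was thus higher beyond counting error and the ligand was not. The difference of Tnfsf12 minus that of Tnfrsf12a was -0.51, with an interval of the log2 odds ratio of fragments from -0.77 to -0.24. Tnfsf13, the gene of APRIL, lies 0.685 kb from Tnfsf12 on the same strand, and fragments of transcripts that run through both genes could be split between them. It had only 6 and 8 fragments.

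**Figure D3:**
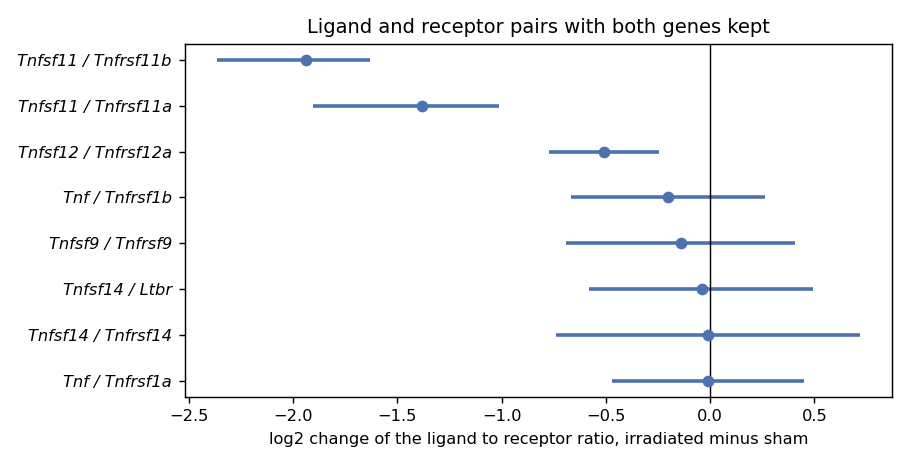
Difference between the libraries in the log2 ratio of ligand to receptor transcript, irradiated minus sham-irradiated (points), with the 95% counting interval of the odds ratio (lines), for the 8 pairs in which both genes reached an FPKM of 1. The intervals of RANKL with osteoprotegerin, RANKL with RANK, and TWEAK with Fn14 lie below 0, and those of the other pairs include 0.

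The TRAIL system showed a difference at the death receptor. Tnfrsf10b encodes the only mouse TRAIL receptor with a death domain, and it is a known p53 target. The gene (chromosome 14, 69767472 to 69784411) showed an FPKM of 6.67 in the sham library and 10.8 in the irradiated library, on 1029 and 1897 fragments. The difference was 0.68, with a counting interval from 0.58 to 0.80. Its ligand TRAIL, encoded by Tnfsf10, had an FPKM of 0.429 and 0.482 on 66 and 85 fragments, with a counting interval from -0.31 to 0.66. No difference of the ligand was therefore detectable.

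The decoy receptors of TRAIL in the mouse are encoded by neighbouring genes on chromosome 7, next to the related orphan gene Tnfrsf26. Tnfrsf23 had an FPKM of 21.9 and 22.2 on 2245 and 2606 fragments, a difference of 0.02 with a counting interval from -0.06 to 0.10. Tnfrsf22, 16.1 kb away, had an FPKM of 3.61 and 4.07 on 464 and 600 fragments, a difference of 0.17 with an interval from -0.00118 to 0.35. Tnfrsf26, a further 6.96 kb away, had an FPKM of 4.10 and 5.44 on 372 and 565 fragments, a difference of 0.40 with an interval from 0.22 to 0.60. Of these 3 similar genes, the interval lay above 0 for Tnfrsf26, and the authors' counting could have split fragments among them.

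The TNF receptors differed little. Tnfrsf1a, the gene of the broadly expressed death-domain receptor TNFR1, had the highest level of the family, with an FPKM of 90.4 in the sham library and 86.7 in the irradiated library, on 5930 and 6510 fragments. The difference was -0.06 with a counting interval from -0.11 to -0.01, and the rounding of the deposited values to 2 decimals can move a difference by 0.01. Tnfrsf1b, the gene of TNFR2, a TRAF-binding receptor of immune and endothelial cells, had an FPKM of 22.4 and 24.5 on 3354 and 4202 fragments, a difference of 0.13 with an interval from 0.06 to 0.20. Ltbr, the gene of the lymphotoxin beta receptor of stromal cells, had an FPKM of 33.5 and 31.7 on 2132 and 2308 fragments, a difference of -0.08 with an interval from -0.17 to 0.01. None of these 3 receptors differed by more than 0.13.

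Their ligands were scarce. Tnf, made mainly by macrophages, had an FPKM of 1.57 and 1.49 on 79 and 86 fragments, and its counting interval ran from -0.53 to 0.39. The Tnfrsf1a transcript was 57.6 and 58.2 times that of Tnf in the 2 libraries. Tnfsf14 encodes LIGHT, a ligand of Ltbr and of the receptor HVEM, and had an FPKM of 1.07 and 0.979 on 61 and 64 fragments. Tnfrsf14, the gene of HVEM, had 2.29 and 2.12 on 71 and 75 fragments. The intervals of both genes included 0. Ltb, the membrane-bound lymphotoxin of lymphocytes, stayed under an FPKM of 1, at 0.935 and 0.560 on 41 and 28 fragments, with a difference of -0.65 and an interval from -1.49 to -0.02. Lta had 2 and 3 fragments. On chromosome 17, Ltb, Tnf, and Lta lie within 35194507 to 35205351, and of these neighbours the interval excluded 0 for Ltb.

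The ligands and receptors that co-stimulate lymphocytes were detected unevenly. Tnfsf9, the gene of 4-1BB ligand, had an FPKM of 2.40 and 2.58 on 90 and 111 fragments, and its receptor gene Tnfrsf9 had 1.75 and 2.09 on 119 and 162 fragments. Cd40, a receptor of antigen-presenting cells, had an FPKM of 1.38 and 1.36 on 71 and 80 fragments, while its ligand gene Cd40lg had 1 and 5 fragments. Tnfsf13b, the gene of the B cell survival factor BAFF, had 2.00 and 1.96 on 216 and 242 fragments. The counting intervals of these genes included 0. The ligands BAFF and 4-1BB ligand were thus measurable in both libraries, at levels that did not differ beyond counting error.

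The remaining receptor above the minimum, Tnfrsf21, encodes DR6, a death-domain receptor studied in neurons and T cells. It had an FPKM of 4.04 in the sham library and 5.11 in the irradiated library, on 507 and 733 fragments, a difference of 0.33 with a counting interval from 0.17 to 0.50.

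**Figure D4:**
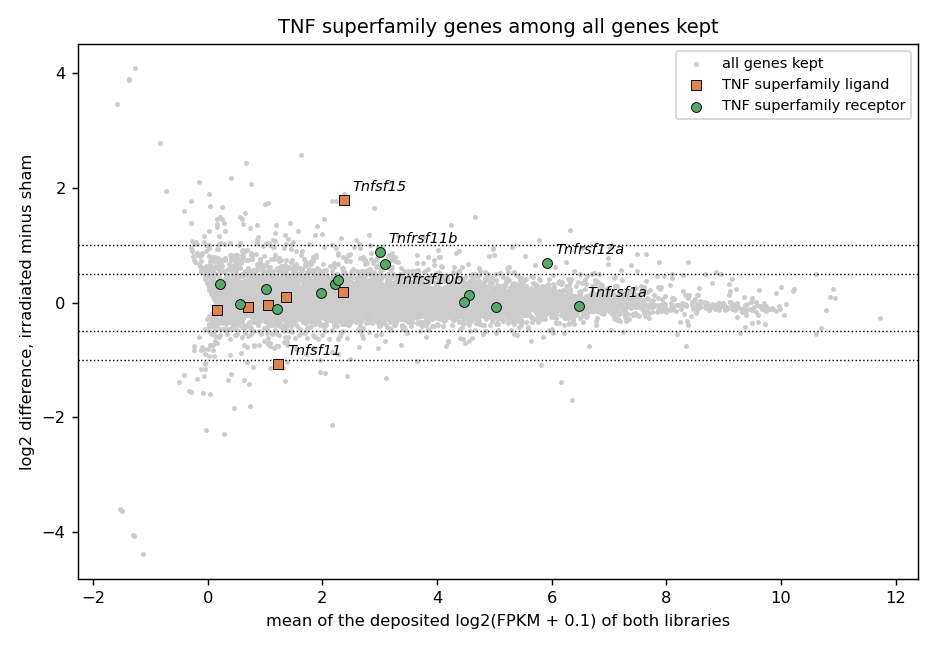
Difference in log2(FPKM + 0.1), irradiated minus sham-irradiated, against the mean of both libraries for the 11253 genes with an FPKM of 1 or more in either library (grey), with the 7 ligand genes (squares) and 14 receptor genes (circles) of the TNF superfamily drawn over them. Dotted lines mark differences of 0.5 and 1 in both directions. Tnfsf15, at 1.80, and Tnfsf11, at -1.06, lie beyond the outer lines, and the other 19 genes lie between -0.12 and 0.88.

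The other 20 genes of the family, 10 ligand and 10 receptor genes, stayed under an FPKM of 1 in both libraries, with between 0 and 85 fragments. Of these, 17 stayed under an FPKM of 0.3. The BAFF and APRIL receptors of B and plasma cells were at the floor, with 7 and 7 fragments for Tnfrsf13b, 6 and 1 for Tnfrsf13c, and 1 and 0 for Tnfrsf17. Receptors of activated lymphocytes among these 20 genes were as low, whereas Tnfrsf9 passed the minimum, as given above. Cd27 had 6 and 3 fragments, Tnfrsf4 had 14 and 11, Tnfrsf18 had 8 and 8, and Tnfrsf8 had 5 and 0.

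Ligand genes of such receptors, and Fasl, the ligand gene of Fas, were also scarce. Tnfsf4 had 8 and 10 fragments, Tnfsf18 had 6 and 6, Cd70 had 1 and 0, and Fasl had 0 and 4. A gene of 1 kb with no fragments can have an FPKM of up to 0.0981 in the sham library and 0.0857 in the irradiated library, the value of 3 fragments. Tnfrsf19, a receptor of progenitor cells also called TROY, had 23 and 26 fragments. Ngfr, the low-affinity neurotrophin receptor, had 9 and 23 fragments, a difference of 0.65 with a counting interval from -0.01 to 2.45.

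Of these 20 genes, the counting interval lay below 0 for Ltb and Tnfrsf8 and included 0 for the other 18. The share of all genes under this minimum with such an interval was not worked out. Both intervals ended close to 0, at -0.02 for Ltb and at -0.07 for Tnfrsf8, which had 5 and 0 fragments. Both genes are mainly lymphocyte genes. Beside them, the summed FPKM of the B and plasma cell markers was 2.71 and 1.26, with 29 and 8 fragments for Cd79a and no fragment of Pax5 in the sham library against 2 in the irradiated library. The part of lymphocytes in these values was not tested.

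Many members lie close together on the genome. With a gap of at most 200 kb, 22 of the 41 genes fell into 9 groups of neighbours. Levels within a group were often far apart. On chromosome 6, Tnfrsf1a and Ltbr, which are 35.9 kb apart, had an FPKM of 90.4 and 33.5 in the sham library, whereas Cd27, 69.5 kb beyond Ltbr, had 0.102. On chromosome 4, Tnfrsf1b had 22.4 and its neighbour Tnfrsf8, 22.1 kb away, had 0.103. On chromosome 17, Tnfsf9 and Tnfsf14 had 2.40 and 1.07, and Cd70, which lies between them, had 0.0387.

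Signalling genes downstream of the receptors were examined with a list of 64 genes in 8 sublists, of which all were found and 57 reached an FPKM of 1 or more in either library. Of the 57, 0 differed by at least 1 in either direction, 2 were higher by at least 0.5, and 1 was lower by at least 0.5, against the 4.31% and 1.44% of all 11253 genes given above. The median difference of the 57 genes was 0.02, equal to that of the 11253 genes. The counting interval lay above 0 for 16 of them, against 23.8% of the 11253 genes, and below 0 for 4, against 17.4%.

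Among the family genes outside the symbol rule, Eda2r, the gene of the ectodysplasin A2 receptor and a known p53 target, had an FPKM of 6.77 in the sham library and 12.5 in the irradiated library, a difference of 0.87 with a counting interval from 0.78 to 0.98. Its ligand gene Eda had 0.900 and 0.914 on 173 and 201 fragments. Fas, the death receptor of FasL and another known p53 target, had 15.1 and 15.6 on 829 and 976 fragments, a difference of 0.04 with an interval from -0.09 to 0.18. Relt had a difference of -0.05. The counting intervals of Tnfrsf10b and Fas, both genes of death receptors, do not overlap.

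Genes that cut or shield the ligands included the largest difference among the 57 genes. Timp3, an inhibitor of ADAM17, the protease that releases TNF from the cell surface, had an FPKM of 92.3 in the sham library and 179.7 in the irradiated library, a difference of 0.96 with a counting interval from 0.93 to 0.99. Adam17 itself had 25.7 and 23.3, a difference of -0.14 with an interval from -0.21 to -0.07. Rhbdf2, which helps ADAM17 reach the cell surface, had a difference of 0.43 with an interval from 0.25 to 0.65 and was named after its value was seen.

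Adaptors and effectors lay within 0.34 of 0. Among 10 adaptors, Cradd had the highest difference, 0.34, with a counting interval from -0.03 to 0.74, and Traf2 the lowest, -0.12, with one from -0.28 to 0.04. Among 9 cell death effectors, Cflar, which encodes the caspase-8 inhibitor c-FLIP, had the highest difference, 0.31, with an interval from 0.24 to 0.39, and Ripk1 the lowest, -0.05. The counting interval lay above 0 for 5 of these 9 genes, against 23.8% of the 11253 genes, and below 0 for 0, against 17.4%.

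Among the regulators of NF-kB, 1 gene differed by 0.5. Tnip1, which encodes a partner of the deubiquitinase A20 that restrains NF-kB, had an FPKM of 28.1 in the sham library and 19.9 in the irradiated library, a difference of -0.50 with a counting interval from -0.59 to -0.42. Among the 11 genes of this sublist, Cyld had the highest difference, 0.22. Among 9 kinase complex genes, Ikbkg was highest, at 0.26, and Tab1 lowest, at -0.09. Among 8 genes of NF-kB subunits and inhibitors, Rel was highest, at 0.14 with an interval from -0.11 to 0.40, and the inhibitor gene Nfkbie lowest, at -0.26 with an interval from -0.44 to -0.09.

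**Figure D5:**
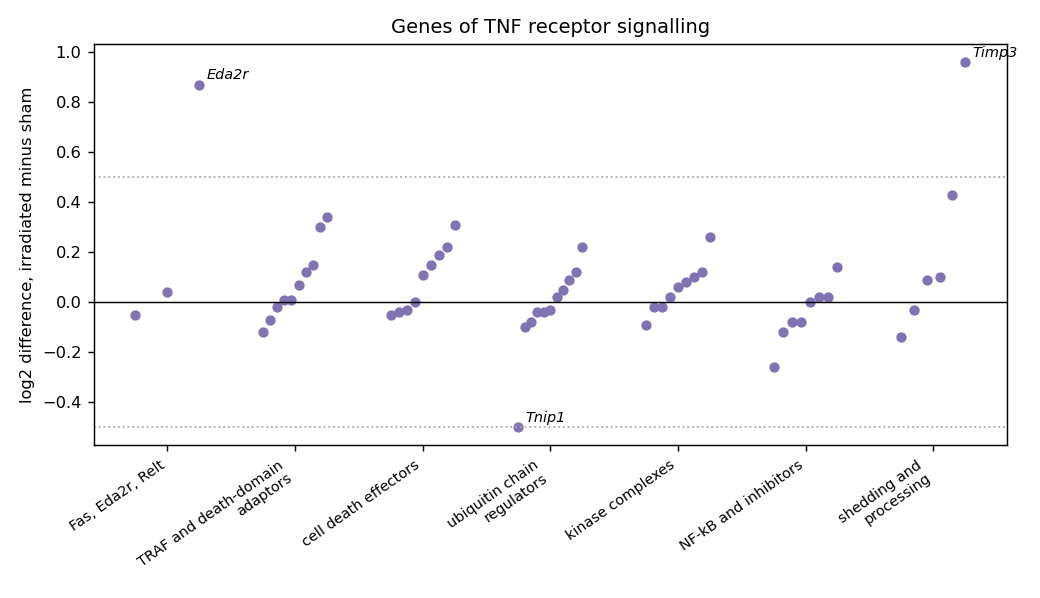
Difference in log2(FPKM + 0.1), irradiated minus sham-irradiated, of 56 signalling genes with an FPKM of 1 or more in either library, in 7 sublists. Each point is a gene, and the dotted lines mark differences of 0.5 in both directions. Eda2r and Timp3 lie above the upper line, Tnip1 lies on the lower line at -0.50, and the other genes lie between -0.26 and 0.43.

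Where levels of other cell types moved with these genes, their part was not tested. Of all 11253 genes, 4.31% were higher and 1.44% lower by at least 0.5. Of the 8 mesothelial markers, 7 were higher by at least 0.5, and Wt1 had a difference of -0.13. Of the 11 macrophage markers above an FPKM of 1, 4 were higher by at least 0.5, while Lyz2, the most abundant, had an FPKM of 443 and 410. Of the 4 mast cell markers above an FPKM of 1, 3 were lower by at least 0.5. Of the 10 fibroblast and progenitor markers, 1 was lower by at least 0.5. Their counting interval lay below 0 for 5, against 17.4% of the 11253 genes, and above 0 for 3, against 23.8%. Col1a1, the most abundant of them, had a difference of -0.44.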

How the data were processed

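The data comprised 1 table with 2 RNA sequencing libraries, assigned to conditions by the treatment given in their labels. The deposited values are the log2 of FPKM with 0.1 added, given by the authors to 2 decimals beside the position and length of each gene. The submitters' processing notes name genome build mm10, and 28 of the 41 genes matched RefSeq on GRCm38.p6 in chromosome and in their start or end. The aligner, counter, and filters are not given in these sources, and the labels describe a stranded library preparation.

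The log2 was undone and 0.1 subtracted to give FPKM. The total fragments of each library were found as the number that made FPKM multiplied by gene length nearest to whole fragments over genes with few fragments. All 2324 and 2267 such genes lay within 0.12 of a whole number. The procedure was tested on simulated data. Fragments of abundant genes are approximate because of the rounding, and PCR copies are not independent molecules, so intervals and floors cover counting error only.

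The members, the marker and signalling lists, and the ligand and receptor pairs were chosen with earlier results of these data known. Every member with an FPKM of 1 or more in either library was named, as were signalling genes with a difference of at least 0.5 and the highest and lowest of each sublist. The values of 1 sublist are not reported here. Of the marker list, Trac was not matched. The alternatives were a pseudocount of 1 or of 0.1 on recovered fragments, no filter, a minimum FPKM of 5, a threshold of 2, means instead of medians, median centring, and scaling that left out the 100 most abundant genes. A minimum FPKM of 1 in both libraries was added after seeing the data. The tools were SciPy 1.17.1, pandas 2.3.3, and numpy 2.4.6 in Python 3.11.15, with matplotlib 3.10.9 for the plots.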

Additional observations from a re-analysis of the deposited data

How the results depend on the processing

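No paired analysis was possible because there was 1 library on each side, which also left no replicate to leave out. As reported, 1 of 21 genes was higher by at least 1 and 1 lower, while at 0.5 there were 4 higher genes and 1 lower gene. With a threshold of 2, 0 genes were higher and 0 lower. With log2(FPKM + 1), 0 genes were lower by at least 1, since the difference of Tnfsf11 became -0.76, and Tnfsf15 became 1.52. Without a filter, which admits all 41 genes, 2 were lower by at least 1, and at 0.5 there were 7 higher and 4 lower genes. Genes added on the lower side were Tnfrsf8, with 5 and 0 fragments, Tnfrsf13c, with 6 and 1, and Ltb, with 41 and 28. Those added on the higher side were Cd40lg, with 1 and 5, Fasl, with 0 and 4, and Ngfr, with 9 and 23. No matching share over all 24091 genes was computed, so these counts have no background. With a minimum FPKM of 5, which keeps 11 genes, 0 were lower by at least 1 and 0 by at least 0.5. The median difference of the family lay between 0.08, without a filter, and 0.33, with a minimum FPKM of 5. That of the signalling genes lay between 0, after centring, and 0.07, as a mean. Centring shifted all genes by -0.02 and scaling without the 100 most abundant genes by -0.016. Of the 21 genes, 19 stayed within their counting interval with log2(FPKM + 1). Each of the 21 did so under centring and scaling, but these could not have come out otherwise. Both shifts were smaller than the distance from any of the 21 differences to the ends of its interval. The upper end of the Ltbr interval, at 0.005, was nearer to 0 than either shift. Requiring an FPKM of 1 in both libraries kept 19 genes and left the counts as reported. Depth limits the 20 genes under an FPKM of 1, of which 18 had a counting interval that included 0.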
